A study of Homo sapiens with 8 samples.

Results

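The 7 subunits of respiratory complex I that are encoded in the mitochondrial genome were followed here through a comparison of translational efficiency between THP-1 cells with ALKBH5 knocked down and control THP-1 cells. The members were chosen by symbol, as all MT-ND genes in the deposited table, and 7 of its 9339 genes met that rule. THP-1 is a cultured line from a human acute monocytic leukaemia, and ALKBH5 is an enzyme that removes the methyl group of N6-methyladenosine from RNA. The series held 8 libraries in 4 groups of 2, namely ribosome footprints of knockdown cells, footprints of control cells, input RNA of knockdown cells and input RNA of control cells, all grown in the same medium. The labels do not name the agent of the knockdown and do not say whether the replicates of a group were separate cultures, so the errors cover only the spread among these libraries, and that spread may be technical. Footprints are the stretches of RNA that a ribosome shields from nuclease, and translational efficiency is their abundance relative to that of the RNA in the input.

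Values per library were not analysed here, since the table gives 1 row per gene for the comparison as a whole, so the depth of each library and the extent of the ALKBH5 knockdown are unknown here. Which condition served as reference for the fold change is also not stated. A negative value therefore says that a gene's footprints relative to its RNA differed between the conditions in that direction as deposited, and not in which condition they were lower. Of 9 monocytic genes checked, 8 had a value, with mean signals from 4.55 to 2942, the highest being LYZ, the lysozyme gene, and no value was found for CD14.

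Complex I takes electrons from NADH, passes them to ubiquinone and pumps protons across the inner mitochondrial membrane. Its hydrophilic arm is made wholly from nuclear genes, whereas the MT-ND genes encode the core of its membrane arm and are translated inside the organelle by mitochondrial ribosomes. ND2, ND4 and ND5 are the antiporter-like subunits, each with a proton channel. ND1 borders the cavity that takes up ubiquinone, and ND3, ND4L and ND6 lie between it and the antiporter-like subunits. ND6 is the sole protein gene read from its strand of the circular genome, and all others are read from the opposite strand.

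By the authors' deposited table all 7 members had a negative log2 fold change of translational efficiency, from -1.12 for MT-ND6 to -0.23 for MT-ND1, with a median of -0.45, a ratio of 0.731 between the conditions. Of the 7, 1 passed an adjusted p of 0.05, MT-ND6, with 0 passing in the positive direction. Over all genes with an adjusted p, 1.54% passed (10 of 648, all of them negative). A negative sign alone was common, at 51.9% of all genes and 68.4% of the genes with an adjusted p, whose median log2 fold change was -0.12. The genes share libraries and mitochondrial transcripts, so the 7 signs are not 7 independent observations. At an unadjusted p under 0.05 the count among the members was again 1, where 8.80% of the 648 genes passed.

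MT-ND6 had the smallest p of the whole table. Its log2 fold change was -1.12 ± 0.16 (SE, 2 libraries per group) by the authors' deposited table, with an adjusted p of 4.7e-09 from the riborex test with the DESeq2 engine. The 95% interval ran from -1.43 to -0.80, so the ratio between the conditions was 0.461, with bounds of 0.370 and 0.576. Among the 200 genes closest to it in mean signal, 1 had a lower fold change, and among the 648 genes with an adjusted p it ranked 3 from the most negative. Human ND6 mRNA is known as the mitochondrial mRNA without a poly(A) tail, and the labels call the input libraries polyA RNA. How much ND6 RNA entered the input was not tested, since the table joins footprints and input in 1 value.

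The other members beside the quinone site and the first proton channel had smaller fold changes, none past the test. MT-ND4L had the second most negative value, -0.64 ± 0.36 by the authors' deposited table (adjusted p = 0.67), with a 95% interval from -1.35 to 0.07. MT-ND3 stood at -0.29 ± 0.30 (adjusted p = 0.999), with an interval from -0.87 to 0.30. MT-ND1 had the value nearest to 0, at -0.23 ± 0.17 by the authors' deposited table (adjusted p = 0.96), and its interval, from -0.57 to 0.11, was the narrowest after that of MT-ND6. For MT-ND1 a change as large as that of MT-ND6 thus lay outside the interval.

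The antiporter-like subunits lay close together. MT-ND4 had a log2 fold change of -0.51 ± 0.26 by the authors' deposited table (adjusted p = 0.56), a ratio of 0.703, and its 95% interval, from -1.03 to 0.01, only just included 0. MT-ND5, the longest member, had -0.45 ± 0.25 (adjusted p = 0.67), a ratio of 0.731, by the authors' deposited table, with an interval from -0.94 to 0.04. MT-ND2 had -0.30 ± 0.41 by the authors' deposited table (adjusted p = 0.999), the widest error of the 7, and its interval, from -1.11 to 0.52, held changes in both directions. The median of these 3 genes was -0.45 and that of the other 4 members was -0.46, so the roles did not separate the values.

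**Figure D1:**
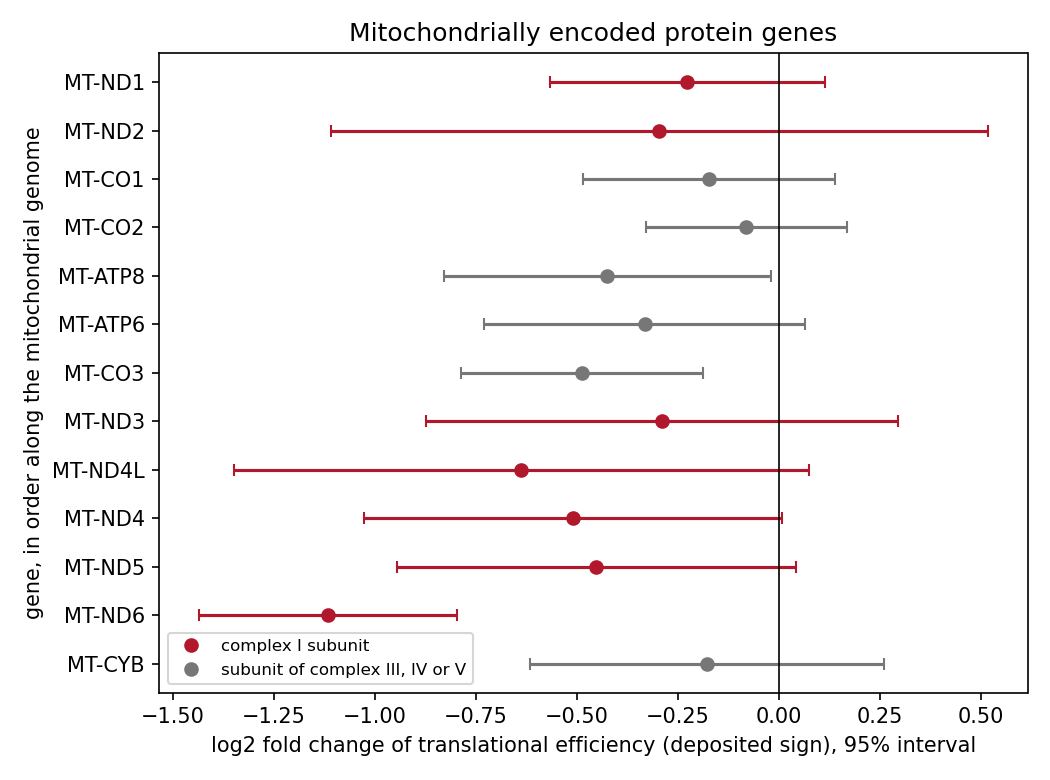
Log2 fold change of translational efficiency (x axis, deposited sign) of the 13 mitochondrially encoded protein genes, listed from top to bottom in their order along the mitochondrial genome; points are deposited values and bars 95% intervals from the deposited standard errors. All points lie left of 0, MT-ND6 lies farthest left at -1.12, and the intervals of the other 6 complex I genes (red) include 0.

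By their order, the values ran from MT-ND6 through MT-ND4L, MT-ND4, MT-ND5, MT-ND2 and MT-ND3 to MT-ND1. No 2 neighbours below MT-ND6 in that order differed by as much as 1 SE of their difference. Of the 15 pairs without MT-ND6, 1 differed by more than its SE, MT-ND4L and MT-ND1, by -0.41 ± 0.40 with a 95% interval from -1.20 to 0.38. These errors treat the genes as independent, which genes from the same libraries need not be, so the differences carry no p.

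MT-ND6 stood below each of the other members. It differed from MT-ND1 by -0.89 ± 0.24 on the log2 scale, with a 95% interval from -1.36 to -0.42, and this was the 1 pair of the 21 whose own intervals did not overlap. The difference was -0.83 ± 0.34 against MT-ND3 and -0.66 ± 0.30 against MT-ND5, and both intervals excluded 0. Against MT-ND4 it was -0.61 ± 0.31, with an upper bound at 0.00019. Against MT-ND2 (-0.82 ± 0.45) and MT-ND4L (-0.48 ± 0.40) the interval included 0. MT-ND6 was thus not separated from MT-ND4L, MT-ND2 or MT-ND4 by the deposited errors.

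**Figure D2:**
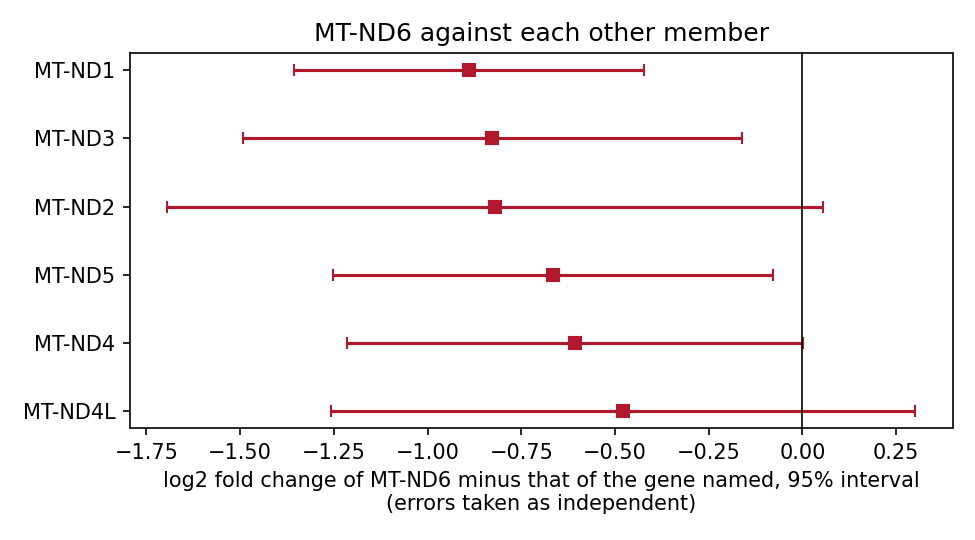
Difference in log2 fold change (x axis) between MT-ND6 and each of the other 6 members (y axis), with 95% intervals that take the errors of the genes as independent. The intervals against MT-ND1, MT-ND3 and MT-ND5 exclude 0, and the one against MT-ND4 ends at it.

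Along the mitochondrial genome (GRCh38.p14, 1-based) the members fall into a first stretch with MT-ND1 at bases 3307 to 4262, MT-ND2 at 4470 to 5511 and MT-ND3 at 10059 to 10404, and a second with MT-ND4L at 10470 to 10766, MT-ND4 at 10760 to 12137, MT-ND5 at 12337 to 14148 and MT-ND6 at 14149 to 14673. Each span is protein-coding sequence without introns. The 3 genes of the first stretch had log2 fold changes from -0.30 to -0.23, and the 4 genes of the second from -1.12 to -0.45. This split was seen in the values and has no test, and of the pairs across it all but MT-ND6 with MT-ND1 had overlapping intervals. The first stretch also holds the 5 other protein genes MT-CO1, MT-CO2, MT-ATP8, MT-ATP6 and MT-CO3, between MT-ND2 and MT-ND3, and their values spread more widely than those of its members, from -0.49 ± 0.15 for MT-CO3 to -0.08 ± 0.13 for MT-CO2 by the authors' deposited table. MT-CO3 adjoins the transfer RNA gene before MT-ND3 and encodes a subunit of cytochrome c oxidase. MT-ATP8 (-0.42 ± 0.21) and MT-ATP6 (-0.33 ± 0.20), subunits of ATP synthase, were likewise more negative than MT-ND1, MT-ND2 and MT-ND3 by the authors' deposited table. After MT-ND6 follows MT-CYB, which encodes cytochrome b of complex III and had -0.18 ± 0.22. With the 5 genes included, the ranges of the first and second stretch overlap.

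MT-ND4L and MT-ND4 overlap by 7 bases and are carried by 1 mRNA in human mitochondria. Their fold changes differed by -0.13 ± 0.45, with a 95% interval from -1.01 to 0.75. MT-ND5 and MT-ND6 adjoin with 0 bases between them but lie on opposite strands, and the ND5 transcript runs on as antisense of ND6. Whether the counting used strand is not recorded in the labels or the table, and without strand reads of the ND6 mRNA and of that antisense stretch cannot be told apart. The value of MT-ND6 is uncertain in that respect.

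Signal was high for all 7 members. The mean normalized signal, averaged by the authors' tool over footprint and input libraries alike, was 894.3 for MT-ND6, 876.3 for MT-ND1, 839.2 for MT-ND4L, 664.2 for MT-ND4, 411.9 for MT-ND5, 238.3 for MT-ND2 and 237.3 for MT-ND3. The median over all genes was 11.9, and the members ranked between 67 and 435 of 9339. All 7 therefore passed the authors' limit on low signal, below which no adjusted p is given. The 7 genes together took 0.583% of the summed signal of the table.

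Per kilobase of gene the order of mean signal was different. MT-ND4L, the shortest member with 297 bases, had 2826 per kilobase, MT-ND6 1704, MT-ND1 916.7, MT-ND3 685.7, MT-ND4 482.0, MT-ND2 228.7 and MT-ND5 227.3. The highest was 12.4 times the lowest. MT-ND4L and MT-ND4, on the same mRNA, differed 5.86-fold per kilobase, and the adjoining MT-ND6 and MT-ND5 7.49-fold. These levels mix footprints with input RNA and have no spread over libraries here, so their order was not tested.

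The standard errors of 3 members stood above those of genes of like signal. The error of MT-ND4L, 0.36, was 1.79 times the median of the 200 genes closest in signal, of which 9 had a larger one. Those of MT-ND2 and MT-ND4 were 1.28 and 1.25 times the respective medians. The errors of MT-ND5, MT-ND3, MT-ND1 and MT-ND6 were 0.998, 0.918, 0.859 and 0.805 times theirs. To match the statistic of the least significant called gene, an estimated log2 change of 0.55 was needed for MT-ND6 and 0.59 for MT-ND1. For MT-ND4L it was 1.23 and for MT-ND2 1.41. An estimate of 1 log2 unit would have reached that statistic for 4 of the 7 members. For the other 3, MT-ND2, MT-ND3 and MT-ND4L, it would have fallen short, though for MT-ND3, which needed 1.01, only just. A true change of that size could yield an estimate on either side of these limits.

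**Figure D3:**
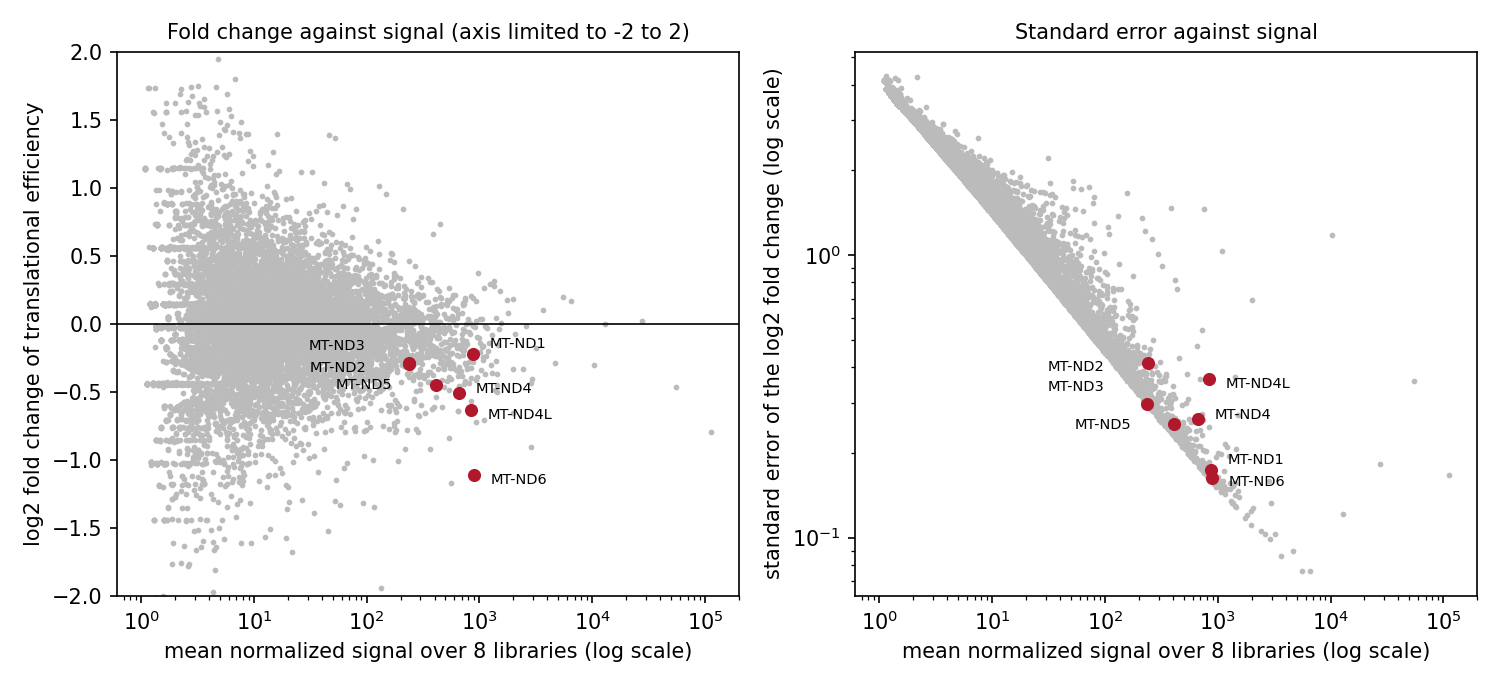
Left, log2 fold change of translational efficiency against mean normalized signal (log scale) for all genes (grey) and the 7 members (red), with the axis limited to -2 to 2, which leaves out 42 genes. Right, the standard error of the fold change (log scale) against the same signal; MT-ND4L, at 0.36, stands above genes of like signal, and MT-ND6 and MT-ND1 lie below the median error of such genes.

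Genes of like signal also tended to the negative side, and the members lay below their medians. Among the 200 genes closest in signal to each member, between 63.0% and 74.5% were negative, with medians from -0.17 to -0.10. All 7 members were lower than those medians, by 0.95 for MT-ND6, 0.47 for MT-ND4L, 0.34 for MT-ND4, 0.32 for MT-ND5, 0.20 for MT-ND2, 0.19 for MT-ND3 and 0.06 for MT-ND1 on the log2 scale. Of the 200 genes, 79 were lower than MT-ND1, whereas 7 were lower than MT-ND4L, 12 than MT-ND5 and 13 than MT-ND4.

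The 6 mitochondrial genes for subunits of other complexes were also all negative, where 68.4% of the genes with an adjusted p were. Their median was -0.25, against -0.45 for the 7 members, and 0 of 6 passed an adjusted p of 0.05. Over all genes with an adjusted p, 1.54% passed that limit and 8.80% had an unadjusted p under 0.05. At an unadjusted p under 0.05, 2 of these 6 passed, against 1 of the 7 members: MT-CO3 (p = 0.0014, adjusted p = 0.077) and MT-ATP8 (p = 0.040, adjusted p = 0.48), by the authors' deposited table, and both 95% intervals excluded 0. Values ranged from -0.49 for MT-CO3 to -0.08 for MT-CO2, both subunits of cytochrome c oxidase, so 4 of the 7 members lay within that range and 3, MT-ND6, MT-ND4L and MT-ND4, below it. Taken against the median of these 6 genes, 6 members were negative, while MT-ND1 was positive at 0.029.

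Nuclear genes of complex I did not pass the test. Of 37 subunit genes listed, 37 had a value and 28 were negative (75.7%, where 51.9% of all genes were), with a median of -0.13. Among the 18 with an adjusted p, 16 were negative, with a median of -0.14, and 0 were called in either direction. Over all genes with an adjusted p, 68.4% were negative, with a median of -0.12, and 1.54% were called. By the authors' deposited table NDUFAB1, the mitochondrial acyl carrier protein, had -0.49 ± 0.28 (adjusted p = 0.67), and the membrane arm subunit NDUFB9 had -0.44 ± 0.25 (adjusted p = 0.67). NDUFS5, another accessory subunit of the membrane arm, had -0.43 ± 0.25 (adjusted p = 0.69) by the authors' deposited table. These 3 were named for having the smallest p of the list, which favours values far from 0 for their error. That they lie close to MT-ND4 and MT-ND5 therefore says nothing about the list as a whole. The nuclear core subunits, which carry the flavin and the iron-sulfur clusters or frame the quinone site, had a median of -0.10 over 7 genes, 6 of them negative. The median mean signal of the 37 genes was 148.1 and their median error 0.42, against 664.2 and 0.26 for the mitochondrial members. The difference between the 2 lists was not tested.

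Factors that assemble complex I are nuclear as well, and 0 of the 19 listed had enough signal for an adjusted p. Their median was -0.14, with 14 negative and 5 positive, where 51.9% of all genes were negative. Of the 19, 0 had an unadjusted p under 0.05, where 0.707% of all genes did. NDUFAF8 had -0.44 ± 0.46, NDUFAF6 -0.61 ± 1.02 and NDUFAF5 1.60 ± 2.71 by the authors' deposited table. Errors of this size leave changes as large as that of MT-ND6 within the intervals.

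Genes for the making, stability and translation of mitochondrial mRNA had 0 calls, but nearly all lacked the signal for an adjusted p and could not be called. Over all genes with an adjusted p, 1.54% were called. The median errors of these lists were larger than their medians. Of 17 genes of mitochondrial RNA synthesis and stability, 12 were positive and 5 negative, with a median of 0.17 and a median error of 1.09, where 51.9% of all genes were negative. Of the 17, 1 had an adjusted p. That gene was SLIRP, which binds mitochondrial mRNAs together with LRPPRC and had -0.20 ± 0.27 by the authors' deposited table (adjusted p = 0.999). POLRMT, the mitochondrial RNA polymerase, had 0.95 ± 1.56 and TBRG4, an RNA-binding protein of the FASTK family, 0.44 ± 0.75. FASTK, whose mitochondrial form is needed for ND6 mRNA, had -0.20 ± 1.05 by the authors' deposited table, with 24.6 as its mean signal. GRSF1, a protein of mitochondrial RNA granules that binds ND6 transcripts, had 0.19 ± 0.70 at a mean signal of 42.6. Of 16 genes of mitochondrial translation and membrane insertion, 10 were positive and 6 negative, with a median of 0.07 and a median error of 1.10. Of the 16, 0 had an adjusted p, so none could be called. The initiation factor MTIF3 had -0.49 ± 1.00, the formyltransferase MTFMT 0.71 ± 1.50 and the ribosome-associated protein PTCD3 0.36 ± 0.88 by the authors' deposited table.

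**Figure D4:**
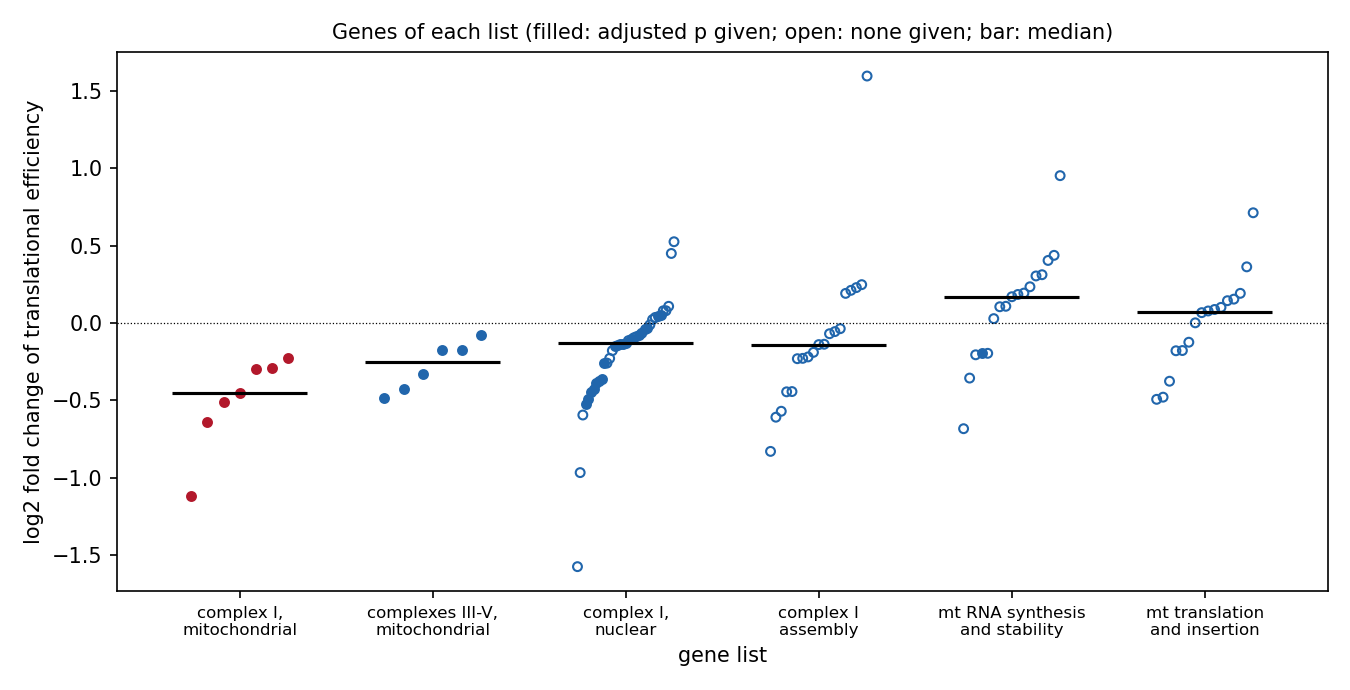
Log2 fold change of translational efficiency (y axis) of each gene of 6 lists (x axis), ordered within a list by value; filled points have an adjusted p, open points do not, and bars are medians. The 7 mitochondrial complex I genes (red) have a median of -0.45 and the nuclear complex I genes one of -0.13, with more scatter among open points.

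Copies of mitochondrial genes in the nuclear genome can share reads with the members. The table held 3 rows named as ND pseudogenes, all with wide errors. MTND2P28, on chromosome 1 (GRCh38.p14, 629640 to 630686), had a mean signal of 73.3, or 70.0 per kilobase against 228.7 for MT-ND2, and a log2 fold change of -0.41 ± 0.81 by the authors' deposited table. MTND4P12 and MTND6P4, both on chromosome 5, had 1.13 and 3.69 per kilobase, against 482.0 for MT-ND4 and 1704 for MT-ND6. How reads shared with such copies were assigned is not recorded in the labels or the table. Of the 3 copies, that of MT-ND2 had the most signal per kilobase, and the value of MT-ND2 is uncertain in this respect. Of the 5 MTRNR2L rows, nuclear genes resembling the mitochondrial 16S ribosomal RNA, all 5 were negative, where 51.9% of all genes were. By the authors' deposited table only MTRNR2L1 (-0.38 ± 0.26, adjusted p = 0.90) and MTRNR2L12 (-0.43 ± 0.10, adjusted p = 9.4e-04) had an adjusted p. MTRNR2L12 was called, where 1.54% of all genes with an adjusted p were. The errors of the remaining MTRNR2L rows ran from 0.50 to 1.55.

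With 1 value per gene, likeness to a member could be judged only by the Wald statistic (the fold change over its error) among the 200 genes nearest in signal. Nearest to MT-ND6 (-6.85) were RPL5 (-4.59) and RPL38 (-4.46), ribosomal protein genes that were both still well apart from it. Nearest to MT-ND5 (-1.79) were the nuclear complex I genes NDUFB9 (-1.78) and NDUFAB1 (-1.77). For MT-ND4L (-1.75) they were STMN1 and RPS13, for MT-ND1 (-1.30) RPL10A and PFDN2, for MT-ND3 (-0.97) RPL6 and TOMM20, and for MT-ND2 (-0.71) HNRNPD and GNG5. Apart from those of MT-ND6, all of the genes named here lay within 0.030 of the member's own statistic. They were picked for that nearness, so it is no sign of shared behaviour, also for NDUFB9 and NDUFAB1 beside MT-ND5.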

How the data were processed

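Per the labels' protocols, footprints were released from a lysate with micrococcal nuclease and purified on a gel by size, while an aliquot of lysate served as input. CASAVA, kallisto, HISAT2 2.1.0 and the build hg38 are listed in the submitters' processing notes, with no role for each. The counting, its use of strand and the riborex version are stated nowhere in those notes, the labels or the table. The deposited table is the authors' riborex result with the DESeq2 engine, as its name shows. The mean signal, log2 fold change, standard error, Wald statistic (a score), p-value and adjusted p-value are the authors' own, per the file headers. The adjusted p-values equal a Benjamini-Hochberg adjustment over 648 genes, those with a mean signal of at least 155.3.

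Groups were taken from the sample titles. From the table, 95% intervals, ratios, medians, differences and the 200 genes nearest in log mean signal were computed (Python 3.11.15, pandas 2.3.3, SciPy 1.17.1, statsmodels 0.14.6). Only the steps that call genes were tested on simulated data, and the intervals, ratios and differences were not. Positions and lengths came from a RefSeq table of GRCh38.p14, in which all 7 members matched. Named genes were all members, the other 6 mitochondrial protein genes, 3 genes of smallest p per nuclear list with FASTK and GRSF1, the nuclear copies, and 2 genes nearest each member, those of MT-ND4 not being reported here. LYZ and CD14 were named as identity checks. The members and lists were chosen with earlier results of these data known. The alternatives tried were other adjustments, centrings, a rescaling and a signal minimum.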

Additional observations from a re-analysis of the deposited data

How the results depend on the processing

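In each of the 6 alternatives run on the calls (adjustment over all genes with a p-value, Holm adjustment, 2 centrings, rescaling by the spread of genes of like signal, and a mean signal of at least 100), 1 member was called. The adjusted p of MT-ND6 ranged from 4.7e-09 to 3.8e-04 over these and the centring on the other mitochondrial genes, and its log2 fold change from -1.12 to -0.86; for any other member the smallest adjusted p was 0.58 over these alternatives, against 0.56 as deposited. The number of genes called ranged from 7 to 12, against 10 as deposited. Of 49 recomputed member values, 48 kept their direction and their side of the threshold. The exception was MT-ND1, which turned to 0.029 after the median of the other mitochondrially encoded genes, -0.25, was subtracted. Many of the 49 directions could not change. The other adjustments and the signal minimum leave each fold change as deposited, and the rescaling reuses the values centred on genes of like signal. Only the centrings could thus alter a direction, and the Holm adjustment could not add a call. The distance of MT-ND6 from the median of the other members was -0.74, and -0.69 after centring on genes of like signal. No paired analysis was possible because the deposited table holds no values per library, and for the same reason leaving out each replicate was not run. Depth per library is unknown here, so the precision is that of the deposited errors.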
